A study of Mus musculus with 30 samples.

Results

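The liver of wild-type C57BL/6J mice was compared at 6 and at 2 months of age over the whole day. The comparison took 12 of the 30 liver RNA sequencing libraries of the study, which were the 6 libraries of 6-month-old mice and the 6 of 2-month-old mice in its time course, collected at zeitgeber time (ZT, hours after lights on) 1, 5, 9, 13, 17 and 21. The mice were male, carried no transgene, their labels name no treatment at either age, and they ate chow freely under 12 h of light and 12 h of dark. The study made the time course to follow hepatic rhythms and metabolism with age, and the question here is which genes and functions differed in mean daily level. Each age and ZT had 1 library, and the sources used here do not say whether a library held RNA of more than 1 mouse. The 6 ZT therefore served as the replicates of each age and as a block in the model. The p-values thus measured how far the age difference varied from ZT to ZT, and not a spread among mice of the same age and hour. Age cannot be told apart from anything else that set the 2 groups of mice or libraries apart. Set beside this comparison are the 6 libraries of 12-month-old mice in the same time course. Also used are 8 libraries of 2 and 6 months from the study's genotype cohort. These held wild-type mice and mice whose Egr-1 was deleted in hepatocytes with Alb-Cre.

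The liver is the main source of plasma proteins, and its hepatocytes also carry out ureagenesis, amino acid catabolism, bile acid synthesis, fatty acid oxidation and the clearance of drugs and steroids. During inflammation, hepatocytes respond to interleukin-6 and interleukin-1 with the acute-phase response, in which STAT3, C/EBP and NF-kB factors raise transcripts of serum amyloid A, haptoglobin, hemopexin, fibrinogen and other secreted proteins, while many metabolic transcripts and some plasma proteins such as albumin are known to decline. Metallothioneins, which bind zinc and copper, are induced in the same setting by glucocorticoids and metals as well as by interleukin-6. Kupffer cells are the resident macrophages of the liver sinusoids, and neutrophils enter the liver from blood.

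Reads assigned to genes totalled between 13727600 and 16557378 per library at 2 months and between 13375377 and 15464470 at 6 months. Hepatocyte identity was clear at both ages, since the 12 hepatocyte markers summed to 104847 to 124997 counts per 1000000 (CPM, scaled with TMM factors) at 2 months and to 86018 to 120464 CPM at 6 months, whereas 19 markers of pancreas, fat and muscle summed to no more than 8.53 CPM in any of the 12 libraries. Genes of the acute-phase list took 2.17% to 2.73% of all counts at 2 months and 5.87% to 17.1% at 6 months. The 6-month library of ZT5 stood apart, with the highest acute-phase share and the lowest share of albumin (3.77%, against 7.16% to 8.06% at 2 months), and values without ZT5 are given beside a number of the results. At ZT17 of 6 months albumin took 8.42%, above every 2-month library. The age difference of Alb did not pass the main edgeR test. It passed with no count filter (-0.41 on the log2 scale) and with a 24-h curve (-0.40), and it was -0.27 without ZT5 (edgeR adjusted p = 0.336).

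The promoters of acute-phase genes are shown because these genes moved together. Of the 28 genes on the acute-phase list, 22 had a RefSeq window (GRCm38.p6), and the 250 bases before the start site were searched on both strands for TTGCNNAA, a form of the C/EBP motif, and TTCNNNGAA, the core of the STAT motif, which cannot be the same match but may overlap by a few bases. The C/EBP form was found in 13 of the 22 windows (59.1%), against 9.62% of the 9704 tested genes that had a window and 10.8% of all 27025 genes with a window. The STAT core was found in 5 of 22 (22.7%), against 7.37% and 8.13%. A match is a description of the letters and not evidence of a bound factor. Capitals mark the C/EBP form in the windows of Saa2 at chr7:46751583-46751782 (+ strand), Saa1 at chr7:46742981-46743230 (- strand), Saa3 at chr7:46715727-46715926 (- strand), Hpx at chr7:105600167-105600366 (- strand) and Orm2 at chr4:63362199-63362448 (+ strand), both motifs in Fgb at chr3:83049864-83050113 (- strand), and the STAT core in Itih4 at chr14:30886226-30886475 (+ strand). The windows, written 5′ to 3′ along the gene, hold 250 bases up to the RefSeq start site. Where GENCODE starts the gene before RefSeq does, the 50 bases next to that site were left out and 200 are shown.
Saa2: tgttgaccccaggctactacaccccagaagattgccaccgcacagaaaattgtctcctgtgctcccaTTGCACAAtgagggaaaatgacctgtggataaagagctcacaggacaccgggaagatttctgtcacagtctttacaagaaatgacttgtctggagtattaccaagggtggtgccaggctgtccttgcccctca
Saa1: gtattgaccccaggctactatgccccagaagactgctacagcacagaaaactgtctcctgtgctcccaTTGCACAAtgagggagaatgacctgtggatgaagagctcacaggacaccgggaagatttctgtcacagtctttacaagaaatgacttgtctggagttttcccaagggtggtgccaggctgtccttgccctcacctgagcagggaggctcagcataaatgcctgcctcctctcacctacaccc
Saa3: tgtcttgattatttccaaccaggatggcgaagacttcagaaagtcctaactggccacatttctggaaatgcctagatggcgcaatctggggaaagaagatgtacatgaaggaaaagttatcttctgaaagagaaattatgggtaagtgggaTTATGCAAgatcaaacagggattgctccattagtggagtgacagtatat
Hpx: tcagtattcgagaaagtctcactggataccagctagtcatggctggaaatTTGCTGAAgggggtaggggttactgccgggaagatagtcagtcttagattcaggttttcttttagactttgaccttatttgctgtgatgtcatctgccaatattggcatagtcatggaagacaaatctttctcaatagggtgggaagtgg
Orm2: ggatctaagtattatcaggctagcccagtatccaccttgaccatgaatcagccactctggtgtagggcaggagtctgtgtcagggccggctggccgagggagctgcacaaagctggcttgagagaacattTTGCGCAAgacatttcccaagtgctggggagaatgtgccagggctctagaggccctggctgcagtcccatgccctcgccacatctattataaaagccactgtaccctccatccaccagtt
Fgb: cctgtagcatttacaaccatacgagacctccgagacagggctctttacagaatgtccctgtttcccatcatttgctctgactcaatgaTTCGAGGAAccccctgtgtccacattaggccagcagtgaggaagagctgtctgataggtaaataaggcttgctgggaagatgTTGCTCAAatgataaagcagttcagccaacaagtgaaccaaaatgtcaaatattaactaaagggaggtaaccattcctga
Itih4: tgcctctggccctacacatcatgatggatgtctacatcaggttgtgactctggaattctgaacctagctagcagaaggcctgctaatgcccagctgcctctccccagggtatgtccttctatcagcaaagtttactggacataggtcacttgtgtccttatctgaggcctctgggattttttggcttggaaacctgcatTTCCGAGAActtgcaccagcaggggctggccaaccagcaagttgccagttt
In Saa2 and Saa1, neighbouring paralogues, the marked octamer is the same and starts 183 and 182 bases before the start site. Saa3 carries the motif on the other strand, 99 bases before its start. In Orm2 it starts at 120 bases and in Hpx at 200 bases before the start. Fgb holds the STAT core 162 bases and the C/EBP form 80 bases upstream, and the STAT core of Itih4 begins at 51 bases.

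Of 12931 genes with enough counts to test, 1529 (11.8%) differed between 6 and 2 months at an adjusted p below 0.05 in the edgeR quasi-likelihood test with ZT as a block, 744 of them higher at 6 months (5.75% of all genes tested) and 785 lower (6.07%). The median log2 fold change over all genes tested was 0.01. Among the called genes, 667 of the higher ones were higher at all 6 ZT and 684 of the lower ones were lower at all 6. The ranges of the 2 ages did not overlap at all for 589 genes (4.55%). An absolute log2 fold change above 1.2, the study's own limit, was passed by 212 called genes (1.64%). The number of calls fell to 931 without ZT1, 845 without ZT9 and 942 without ZT21, and to 980 when ZT was not in the model, while with ZT5, ZT13 or ZT17 left out it stayed between 1142 and 1179.

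Acute-phase transcripts were higher at 6 months throughout the day, and 7 of the 12 genes named for the largest increases were on this list. Of its 28 members, all of which were tested, 26 were higher (5.75% of all genes tested were) and none was lower, with a median log2 fold change of 1.84, and the count was 26 with any ZT left out and without the block. The summed level of the list was 21051 to 27652 CPM at 2 months and 60792 to 171105 CPM at 6 months, so the groups did not overlap. Levels and differences below are in CPM and on the log2 scale, and in whole tissue fewer cells of a type and less RNA per cell cannot be told apart. Counts in each list below stand against 5.75% of all genes tested that were higher at 6 months and 6.07% that were lower.

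Saa2 (chromosome 7, 46751790 to 46754313), a serum amyloid A that travels on high-density lipoprotein, ranged from 17.1 to 39.3 CPM at 2 months with a median of 22.9. At 6 months it ranged from 3065 CPM at ZT21 to 17037 CPM at ZT5 with a median of 8307. Every 6-month library lay far above every 2-month library. The log2 fold change was 8.40 ± 0.44 (SE, n = 6 libraries per age, edgeR adjusted p = 2.28e-06), and 8.11 without ZT5. Saa1, its close paralogue, had 80.5 to 328 CPM (median 146) at 2 months and 5222 to 22477 CPM (median 12032) at 6 months, a log2 fold change of 6.22 ± 0.49 (edgeR adjusted p = 5.53e-05). The transcripts of Saa1 and Saa2 are nearly identical, so how reads were divided between them is uncertain. Saa3, the form made by macrophages and other cells outside hepatocytes as well, went from 3.01 to 5.63 CPM at 2 months (median 4.17) to 86.4 to 1005 CPM at 6 months (median 339). Its groups were also apart, with a log2 fold change of 6.30 ± 0.37 (edgeR adjusted p = 5.2e-06).

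Lcn2, which encodes the siderophore-binding lipocalin 2, had 6.27 to 10.7 CPM (median 9.02) at 2 months and 228 to 2295 CPM (median 773) at 6 months. Its log2 fold change was 6.46 ± 0.45 (edgeR adjusted p = 2.06e-05) and 6.12 without ZT5. Orm2, an alpha-1-acid glycoprotein (chromosome 4, 63362449 to 63365878), had 7.91 to 16.5 CPM (median 9.36) at 2 months and 208 to 804 CPM (median 623) at 6 months, a log2 fold change of 5.70 ± 0.38 (edgeR adjusted p = 1.62e-05). In both genes the lowest 6-month library, that of ZT21, was still above all libraries of 2 months. Orm2 has close paralogues in the same cluster, and its share of their reads is likewise uncertain. Fgl1, a secreted fibrinogen-like protein, had 205 to 288 CPM and 1153 to 2315 CPM, a log2 fold change of 2.86 ± 0.17 (edgeR adjusted p = 6.97e-06).

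Other plasma proteins differed by less, and most were separate between the ages too. Hp (haptoglobin, which binds free hemoglobin) was at 1594 to 1995 CPM at 2 months and 5660 to 14040 CPM at 6 months. Hpx (hemopexin, which binds heme) was at 4373 to 5576 CPM and 11578 to 29570 CPM, a log2 fold change of 1.85 ± 0.18 (edgeR adjusted p = 0.000206). Apcs, the serum amyloid P component, was at 99.4 to 192 CPM and 694 to 4230 CPM, and Itih4, an inter-alpha-trypsin inhibitor heavy chain, at 619 to 844 CPM and 1659 to 5314 CPM. In these 4 genes the 6-month maximum was at ZT5 and the minimum at ZT21. Without ZT5 the log2 fold changes were 2.11 for Hp, 1.73 for Hpx, 3.24 for Apcs and 1.67 for Itih4. For Fgb, the fibrinogen beta chain, the groups overlapped (2651 to 4592 CPM at 2 months and 3815 to 15401 CPM at 6 months), although each ZT had the higher level at 6 months, and the log2 fold change was 1.12 ± 0.15 (edgeR adjusted p = 0.00182). The members without a call were Hamp (hepcidin, the iron hormone), at 458 to 1069 CPM and 508 to 1387 CPM (edgeR adjusted p = 0.191), and Cfb (complement factor B), at 1.64 to 2.93 CPM and 2.43 to 4.18 CPM (edgeR adjusted p = 0.0779). Groups did not overlap in 18 of the 28 members (64.3%), against 4.55% of all genes tested.

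**Figure D1:**
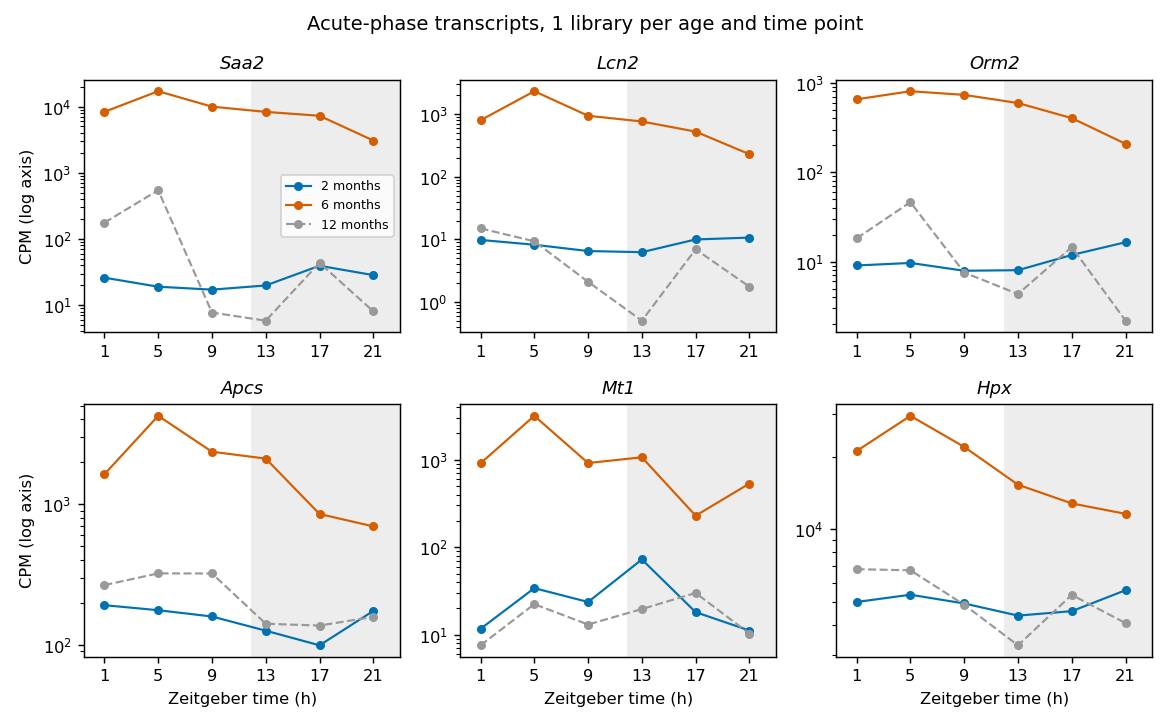
CPM on a log axis against ZT for Saa2, Lcn2, Orm2, Apcs, Mt1 and Hpx at 2 months (blue), 6 months (orange) and 12 months (grey, dashed), 1 library per point, with the dark phase shaded. In all 6 panels every 6-month point lies above every 2-month point, and the 6-month line of Saa2 is highest at ZT5 (17037 CPM) and lowest at ZT21 (3065 CPM).

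The metallothioneins moved on a similar scale. Mt1 ranged from 11.2 to 72.4 CPM at 2 months (median 20.9) and from 229 to 3168 CPM at 6 months (median 912), with a log2 fold change of 5.21 ± 0.41 (edgeR adjusted p = 5.89e-05) and 4.92 without ZT5. Mt2 was barely detected at 2 months (0.0671 to 1.29 CPM, median 0.283) and reached 9.68 to 116 CPM at 6 months (median 40.1), a log2 fold change of 6.70 ± 0.34 (edgeR adjusted p = 2.28e-06) and 6.15 without ZT5. The groups were separate for both genes, and their lowest 6-month value was at ZT17.

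Other genes with large differences, named by their rank, included transporters, members of the serpin family and a chaperone. Of these, Slc13a5 was also on the list of drug and anion transporters. Slc13a5, the plasma membrane citrate transporter, had 0.158 to 0.550 CPM at 2 months and 1.19 to 18.8 CPM at 6 months, and its log2 fold change of 3.72 ± 0.40 (edgeR adjusted p = 0.000377) became 3.06 without ZT5. Slc3a1, a subunit of the cystine and dibasic amino acid transporter, had 10.3 to 25.3 CPM and 46.6 to 125 CPM, a log2 fold change of 2.24 ± 0.10 (edgeR adjusted p = 9.01e-07). Dnajc12, a co-chaperone of the aromatic amino acid hydroxylases, had 7.65 to 11.2 CPM and 32.2 to 104 CPM (2.86 ± 0.14). All 3 were separate between the ages. Also higher, with smallest p-values, were Serpine2 (protease nexin, 3.03 to 7.53 CPM against 16.7 to 34.0 CPM), Atp11a (a phospholipid flippase, 3.10 to 8.10 CPM against 18.6 to 53.3 CPM), Serpina7 (thyroxine-binding globulin, 7.04 to 35.4 CPM against 58.9 to 293 CPM) and Plekhb1 (11.3 to 14.6 CPM against 35.7 to 53.2 CPM). Their log2 fold changes were 2.39, 2.74, 2.76 and 1.77.

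Among genes of interleukin-6 and NF-kB signalling, 9 of 20 tested were higher at 6 months and 1, the interleukin-1 receptor subunit Il1rap, was lower (-0.46), with a median log2 fold change of 0.52 over the list. With a ZT left out 7 to 9 were higher, and no member was lower without ZT1, ZT5, ZT9, ZT13, ZT21 or the block. Socs3, the feedback inhibitor that STAT3 induces, had 2.20 to 7.91 CPM (median 4.23) at 2 months and 9.48 to 96.3 CPM (median 22.3) at 6 months. The ages were apart, and the log2 fold change was 2.57 ± 0.42 (edgeR adjusted p = 0.00436), or 2.15 without ZT5. Lrg1, a secreted leucine-rich glycoprotein, had 237 to 309 CPM and 647 to 2448 CPM, Steap4, a metalloreductase, 74.8 to 130 CPM and 160 to 1624 CPM, and Stat3 itself 54.5 to 61.9 CPM and 70.4 to 162 CPM. Their log2 fold changes were 2.04, 2.24 and 0.93. Il1rn, the interleukin-1 receptor antagonist, was on the acute-phase list above and not among these 20. It had 0.703 to 2.06 CPM and 1.93 to 52.4 CPM, so that the groups touched. Its difference of 2.62 ± 0.54 (edgeR adjusted p = 0.0123) was 1.91 without ZT5.

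Immediate-early genes, transcription factors and regulators that respond within minutes to many stimuli, were higher in 8 of 22 cases, with a median log2 fold change of 0.44, and in 4 to 6 cases when any ZT was left out. No member was lower in the full fit, but without ZT5 5 were higher and 2 lower. Junb had 7.32 to 39.3 CPM and 16.6 to 89.4 CPM, and Fos 0.293 to 1.58 CPM and 0.880 to 4.92 CPM, both with overlapping groups and a higher level at 6 months at each ZT (log2 fold changes 1.49 and 2.03). The call of Junb was lost without the block (1.46) and that of Fos without ZT21 (1.73). Gadd45b had 0.396 to 1.17 CPM and 1.22 to 3.81 CPM. Egr1, the immediate-early factor the study is about, had 1.46 to 27.0 CPM with a median of 5.66 at 2 months and 3.05 to 37.5 CPM with a median of 7.87 at 6 months. It was higher at 6 months at 4 of 6 ZT, and its log2 fold change of 0.63 did not pass the test (edgeR adjusted p = 0.424) and was 0.23 without ZT5.

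Of 16 chemokines tested, 4 were higher at 6 months and 2 lower, with a median log2 fold change of 0.20. Cxcl1, a neutrophil attractant, had 2.52 to 6.92 CPM (median 4.21) at 2 months and 18.3 to 141 CPM (median 33.2) at 6 months, a log2 fold change of 3.53 ± 0.30 (edgeR adjusted p = 8.61e-05). Cxcl13, a B-cell attractant, had 1.41 to 7.05 CPM and 8.23 to 17.6 CPM, Cxcl14 1.48 to 3.51 CPM and 4.52 to 14.2 CPM, and Ccl6 15.2 to 22.3 CPM and 30 to 74.5 CPM. None of the 4 overlapped. The lower ones were Ccl9 (-0.37) and Cxcl9 (-0.74), and neither kept its call without ZT1, ZT9 or ZT21.

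Some transcripts used as markers of neutrophils and macrophages were higher as well, though cell numbers were not measured. Of 15 neutrophil markers, 6 passed the filter on low counts and each of these was higher at 6 months (Lcn2, S100a9, S100a8, Il1b, Mmp9 and Csf3r), which describes only the genes that passed, since a gene could pass through its 6-month libraries alone. Lcn2 is made by hepatocytes too, and without it the summed level of the other 14 was 6.84 to 13.8 CPM at 2 months and 39.0 to 162 CPM at 6 months. S100a9, a calprotectin subunit, had 1.01 to 2.47 CPM and 10.9 to 62.8 CPM (log2 fold change 4.12 ± 0.30, edgeR adjusted p = 2.96e-05, and 3.74 without ZT5), and its partner S100a8 0.872 to 3.16 CPM and 8.53 to 70.8 CPM (3.86 ± 0.33, and 3.50 without ZT5). Prtn3, which encodes the neutrophil protease proteinase 3 and was on no list, had 1.10 to 1.90 CPM and 13.9 to 45.2 CPM, with a log2 fold change of 4.35 ± 0.18 (edgeR adjusted p = 9.01e-07). The other 9 neutrophil markers were too low to test, among them the granule genes Elane, Mpo, Camp, Ngp and Ltf and the surface marker Ly6g.

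Of 19 Kupffer cell and macrophage markers tested, 11 were higher at 6 months and none lower, with a median log2 fold change of 0.36, and 7 were called when ZT1, ZT9 or ZT17 was left out. Their summed level was 895 to 1032 CPM at 2 months and 1020 to 1365 CPM at 6 months, which overlapped narrowly. C1qc, a chain of complement C1q, had 55.1 to 67.3 CPM and 78.7 to 90.1 CPM (0.48 ± 0.07, edgeR adjusted p = 0.00317), and Marco, a scavenger receptor, 2.56 to 11.2 CPM and 7.99 to 21.5 CPM (1.45 ± 0.17). Trem2, the lipid-sensing receptor of macrophages, had 0.475 to 1.10 CPM and 1.35 to 4.40 CPM. Clec4f, the defining Kupffer cell lectin, had 136 to 166 CPM and 149 to 185 CPM and did not pass the test (0.17, edgeR adjusted p = 0.209). The part of these cells in the acute-phase differences was not tested. Markers of T and NK cells stood at 10.6 to 15.1 CPM in all at 2 months and 7.56 to 15.1 CPM at 6 months, and those of B cells at 20.3 to 37.0 CPM and 24.9 to 32.4 CPM. Of 7 cholangiocyte markers tested, Spp1 (1.53), Krt7 (1.13) and Krt19 (1.12) were higher at 6 months, although 1 or 2 were called with a ZT left out, and of 16 sinusoidal endothelial markers Flt4 (0.53), Clec4g (0.50), Aqp1 (0.42) and Kdr (0.35), of which 1 was called without ZT21.

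**Figure D2:**
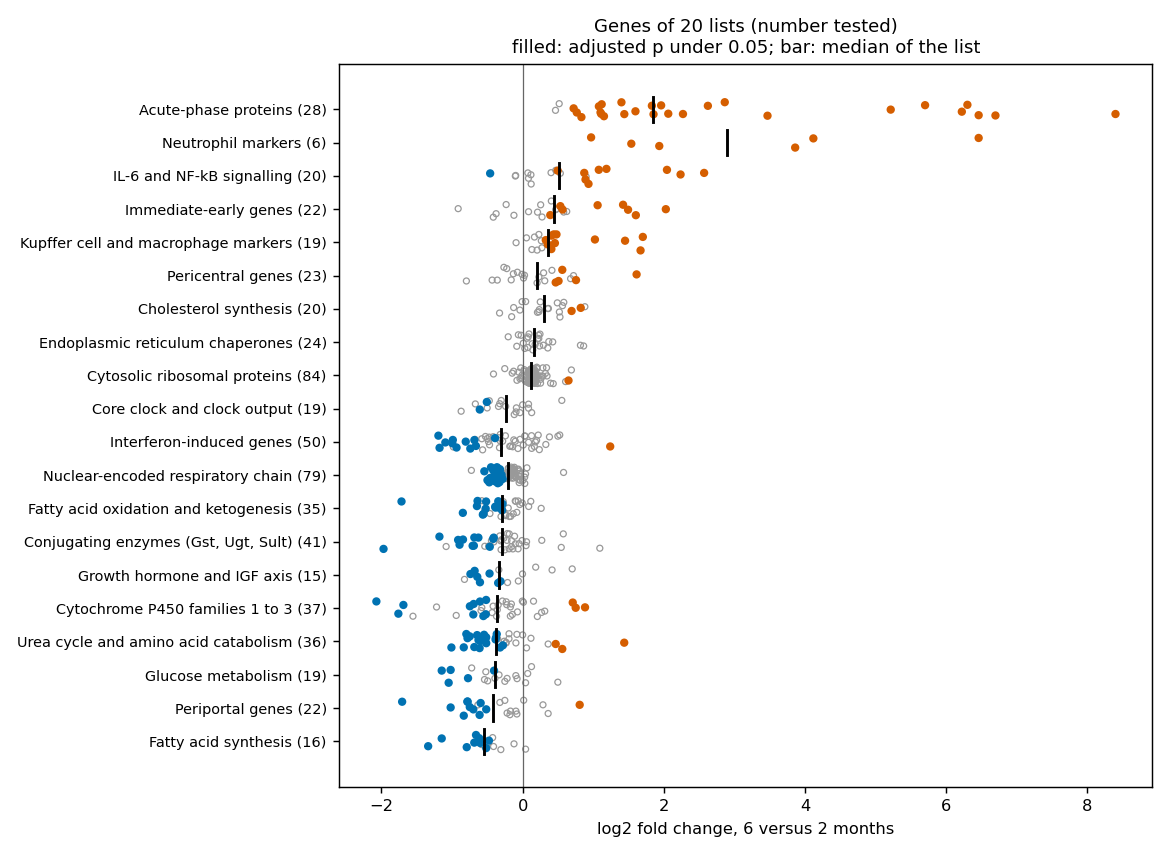
The log2 fold change at 6 against 2 months of each tested member of 20 gene lists (points), with the list median as a black bar and the number tested beside the name. Filled points passed the test (orange, higher at 6 months, and blue, lower) and open grey points did not. The acute-phase list lies on the right with 26 of 28 members called, and the lists of urea cycle and amino acid catabolism, fatty acid synthesis and oxidation, and glucose metabolism lie on the left.

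Many transcripts of hepatocyte metabolism were lower at 6 months. Of 36 genes of the urea cycle and amino acid catabolism, 21 were lower (6.07% of all genes tested were) and 3 higher, with a median log2 fold change of -0.37, and 12 were lower without ZT9 or without the block and 15 to 18 without any other ZT. Cps1 (chromosome 1, 67123026 to 67231259), the carbamoyl phosphate synthetase that feeds the urea cycle, had 3024 to 3701 CPM (median 3530) at 2 months and 1716 to 2604 CPM (median 1808) at 6 months. No library overlapped, and the log2 fold change was -0.83 ± 0.11 (edgeR adjusted p = 0.00161). Ass1, argininosuccinate synthetase, had 1270 to 2181 CPM and 632 to 1478 CPM, which overlapped, with a lower level at 6 months at each ZT (-0.78 ± 0.11).

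Hpd, which acts in tyrosine breakdown, had 1529 to 2006 CPM at 2 months and 906 to 1352 CPM at 6 months (-0.62 ± 0.09), without overlap. Hal, histidine ammonia-lyase, had 248 to 536 CPM and 169 to 293 CPM (-0.75 ± 0.11), with overlap. Csad, the decarboxylase that makes hypotaurine from cysteine sulfinate, went the other way, with 17.6 to 34.2 CPM and 43.6 to 120 CPM (1.44 ± 0.21, edgeR adjusted p = 0.00243). The other higher members were Glul (0.56) and Oat (0.47), ornithine aminotransferase. In the amino acid and integrated stress response, 3 of 20 genes were higher, Asns, Mthfd2 (1.37) and Cebpg (0.36), and Shmt2 was lower (-0.39), while 1 was higher without ZT5. Asns, asparagine synthetase, had 1.58 to 3.30 CPM and 4.23 to 17.6 CPM (1.96 ± 0.29, edgeR adjusted p = 0.00275).

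The zonal lists split, but they share members with lists above and below, so they are not separate results. The periportal genes Cps1, Ass1, Asl, Arg1, Hal, Sds, Sdsl, Gls2 and Uroc1 were also on the amino acid catabolism list. Pck1, Fbp1 and G6pc were also on the glucose list, and the pericentral Glul and Oat on the amino acid catabolism list. Of 22 genes of periportal hepatocytes, 10 were lower and 1, Ctsc, higher (0.81), with a median of -0.42, and 10 or 11 were lower with any ZT left out. Etnppl, the phospholyase of ethanolamine phosphate, had 92.7 to 152 CPM (median 113) and 20.8 to 62.6 CPM (median 36.5), a log2 fold change of -1.71 ± 0.14 (edgeR adjusted p = 7.88e-05) without overlap. Of 23 pericentral genes, 5 were higher and none lower (median 0.20), although only 2 were called without the block. Slc13a3, a dicarboxylate transporter, had 3.56 to 5.29 CPM and 9.72 to 16.3 CPM (1.61 ± 0.12, edgeR adjusted p = 2.59e-05), and Glul, glutamine synthetase of the innermost pericentral cells, 345 to 536 CPM and 486 to 756 CPM (0.56 ± 0.10), with overlap.

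Genes of fatty acid oxidation and of fatty acid synthesis were lower at 6 months where they were called. Of 35 genes of fatty acid oxidation and ketogenesis, 15 were lower and none higher, with a median log2 fold change of -0.29, and 7 were lower without ZT1, 6 without ZT9, 9 without ZT21 and 5 without the block. Cyp4a10, a fatty acid omega-hydroxylase and PPARalpha target, had 60.4 to 95.7 CPM (median 75.3) and 10.5 to 41.0 CPM (median 21.6), with a log2 fold change of -1.71 ± 0.19 (edgeR adjusted p = 0.000497) and no overlap. Ehhadh, of peroxisomal oxidation, had 222 to 290 CPM and 110 to 187 CPM, and Acat1, of ketone body metabolism, 452 to 547 CPM and 289 to 417 CPM. Their log2 fold changes were -0.85 and -0.52, and neither overlapped.

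Of 16 genes of fatty acid synthesis, 9 were lower and none higher (median -0.55), 7 to 9 with any ZT left out and 3 without the block. Thrsp, a lipogenic protein with a strong daily rhythm, had 425 to 2599 CPM (median 942) and 96.8 to 1450 CPM (median 595), so its daily range exceeded the difference between ages, and its log2 fold change of -1.34 ± 0.25 (edgeR adjusted p = 0.0082) was not called without the block. Pklr, liver pyruvate kinase, had 194 to 446 CPM and 45.9 to 198 CPM, Mlxipl, which encodes the carbohydrate-responsive factor ChREBP, 64.5 to 118 CPM and 41.0 to 64.6 CPM, and Fads2, a fatty acid desaturase, 125 to 219 CPM and 69.9 to 138 CPM. The log2 fold changes were -1.15, -0.61 and -0.60, and each gene was lower at all 6 ZT. Of 20 genes of cholesterol synthesis, 2 were higher (10%, against 5.75% of all genes tested), among them Idi1 (0.82). No member was called higher without ZT9. Cd36, the fatty acid translocase that the study examined, had 37.2 to 62.0 CPM and 35.1 to 60.4 CPM, and did not pass the test (0.12, edgeR adjusted p = 0.536). Cidea, the lipid droplet protein that the study examined, was at or below 0.0686 CPM at 2 months and 0.319 CPM at 6 months, too low to test.

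Of 13 genes of fatty acid uptake, 4 were lower, namely Fabp2 (-0.78), Lpl (-0.69), Acsl1 (-0.58) and Slc27a2 (-0.56). Of 19 genes of triglyceride synthesis and lipid droplets, Mgll, Dgat2 and Cideb were lower and Fitm1 higher. In that list 1 was lower without ZT5, ZT9, ZT13 or ZT17. Of 12 genes of sterol regulation and uptake, Scap, Scarb1, Abcg8 and Abcg5 were lower and none higher, though 1 was lower without ZT1, ZT9, ZT21 or the block. Glucose metabolism had 5 of 19 genes lower and none higher (median -0.39), among them Pklr, Slc2a2, G6pc and Pygl. G6pc, the glucose-6-phosphatase catalytic subunit, had 94.0 to 275 CPM (median 213) and 56.3 to 185 CPM (median 80.7), and its log2 fold change of -1.02 ± 0.21 (edgeR adjusted p = 0.0136) was not called without the block. Slc2a2, the hepatocyte glucose transporter GLUT2, had 182 to 369 CPM and 53.8 to 179 CPM (-1.05 ± 0.24), and Pygl, liver glycogen phosphorylase, 430 to 616 CPM and 220 to 431 CPM (-0.77 ± 0.12). The call of Slc2a2 was lost without ZT9 (-0.95). Of 18 genes of bile acid synthesis and transport, 6 were lower and none higher (median -0.33), and 2 without ZT9. Cyp8b1, the sterol 12-alpha-hydroxylase that sets the share of cholic acid, had 91.3 to 200 CPM (median 129) and 22.6 to 90.1 CPM (median 59.2), a log2 fold change of -1.34 ± 0.15 (edgeR adjusted p = 0.000477) with no overlap. Slc10a1, the sodium-dependent bile acid importer, had 405 to 707 CPM and 183 to 375 CPM (-0.80 ± 0.18) and lost its call without ZT9 (-0.78).

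**Figure D3:**
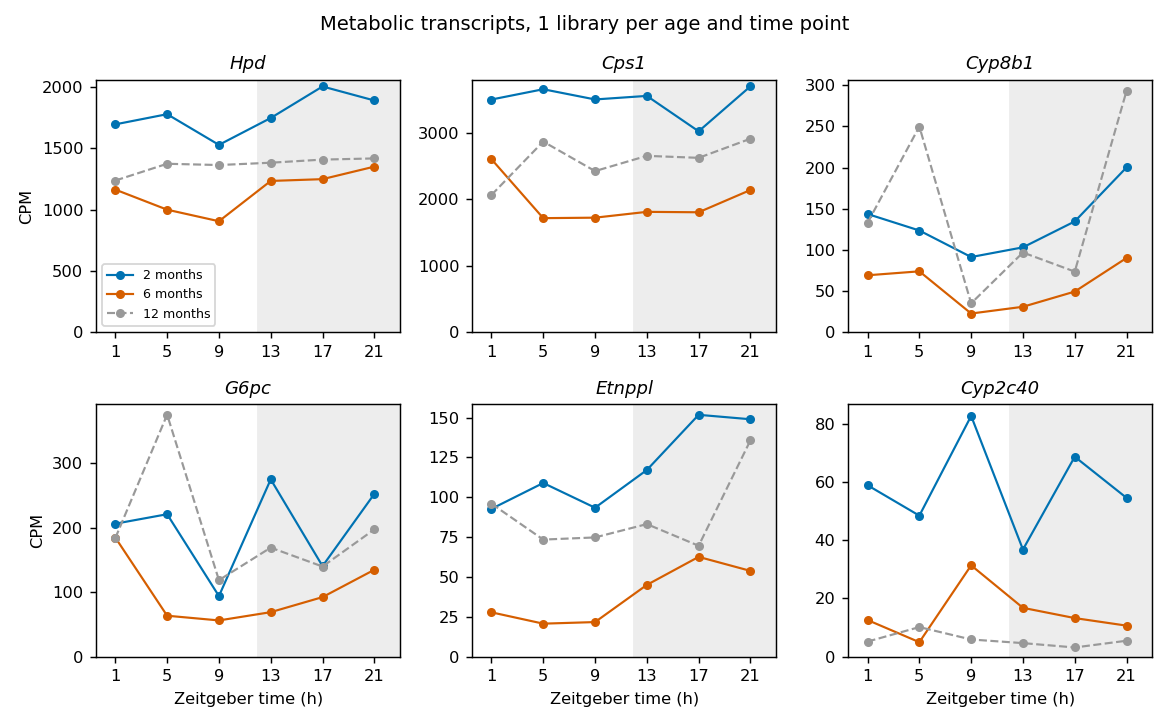
CPM from 0 against ZT for Hpd, Cps1, Cyp8b1, G6pc, Etnppl and Cyp2c40 at 2 months (blue), 6 months (orange) and 12 months (grey, dashed), 1 library per point, with the dark phase shaded. The 6-month line lies below the 2-month line at each ZT in all 6 panels, and in G6pc the ranges of the ages overlap.

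Among cytochrome P450 genes of families 1 to 3, which oxidise drugs and steroids, 10 of 37 were lower and 3 higher (median -0.36). Cyp2c40 had 36.8 to 82.6 CPM (median 56.7) and 5.01 to 31.4 CPM (median 12.9), a log2 fold change of -2.07 ± 0.23 (edgeR adjusted p = 0.000422) with no overlap, and its neighbour Cyp2c69 7.62 to 14.0 CPM and 1.85 to 8.45 CPM (-1.76 ± 0.22). These paralogues lie side by side on chromosome 19 (39767071 to 39812814 and 39842814 to 39886799) and may share reads. Cyp2d11 had 2.13 to 3.76 CPM and 0.447 to 1.41 CPM. In the other direction, Cyp2c37 was higher by 0.75 on the log2 scale, Cyp3a11, the main inducible drug-metabolising enzyme of mouse liver, had 1191 to 1768 CPM and 2155 to 3323 CPM (0.88 ± 0.12, edgeR adjusted p = 0.00157), and Cyp3a13 141 to 191 CPM and 226 to 286 CPM (0.71 ± 0.08). Both Cyp3a genes were higher in every 6-month library than in any 2-month library.

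Of 41 conjugating enzymes, 12 were lower and none higher (median -0.30), with 8 to 13 lower when any ZT was left out. Ugt1a9, a glucuronosyltransferase, had 19.1 to 25.5 CPM and 9.04 to 12.6 CPM (-0.91 ± 0.11, edgeR adjusted p = 0.000836), and Sult5a1, a sulfotransferase, 10.4 to 16.0 CPM and 3.29 to 9.12 CPM (-1.18 ± 0.19). Ces2c, a carboxylesterase, had 50.8 to 75.3 CPM and 18.4 to 34.5 CPM, Inmt, an amine N-methyltransferase, 1552 to 2126 CPM and 182 to 1664 CPM, and Srd5a1, a steroid 5-alpha-reductase, 86.4 to 121.5 CPM and 42.6 to 65.2 CPM. Their log2 fold changes were -1.04, -1.51 and -0.89, and Inmt lost its call without ZT13 (-1.47) and without the block. Pls1, an actin bundler, was the lowest relative to 2 months of the genes with the smallest p, at 2.40 to 3.88 CPM and 0 to 0.255 CPM (-4.26 ± 0.37, edgeR adjusted p = 8.93e-05).

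Hormone-related lists were mixed. Of 25 genes known as male-biased in mouse liver, 3 were higher and 6 lower, the latter 3 without ZT1, ZT9 or ZT21. Of 11 female-biased genes tested, Cyp17a1, Fmo2 (0.69) and Cyp39a1 (0.57) were higher and Sult1e1 (-1.97), Fmo1 (-0.65) and Prlr (-0.31) lower, with 1 or 2 higher and 0 to 4 lower when a ZT was left out. Among 25 nuclear receptors and co-regulators, 1 was higher, and Nr3c1, the glucocorticoid receptor (-0.37), Thrb (-0.37) and Esrra (-0.34) were lower, of which 1 was called without ZT9, ZT13 or ZT17. These shares were 4% and 12%, against 5.75% and 6.07% of all genes tested. Major urinary proteins, which are sex-biased products of growth hormone signalling, had 2 of 20 members called, both higher, and 4 without ZT21. The share higher was 10%, against 5.75% of all genes tested. Mup9 had 7.51 to 101 CPM and 48.0 to 640 CPM, and Mup11 643 to 1530 CPM and 1273 to 2334 CPM, both higher at 5 of 6 ZT (4.33 ± 0.81 and 0.93 ± 0.19). These genes are near-identical copies, so their separate values are uncertain. In the growth hormone and IGF axis, 7 of 15 genes were lower and none higher (median -0.34), and 2 to 5 were lower when any ZT other than ZT5 was left out. Igfbp2, an IGF carrier, had 398 to 507 CPM and 202 to 344 CPM (-0.68 ± 0.11).

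Nuclear-encoded subunits of the respiratory chain were lower in 24 of 79 cases and higher in none, with a median log2 fold change of -0.20, and the count was 11 without ZT1, 12 without ZT13, 13 without ZT9 and 14 without ZT21 or without the block. Sdhb, of complex II, had 292 to 410 CPM and 180 to 297 CPM, Ndufs1, of complex I, 127 to 150 CPM and 80.1 to 115 CPM, and Uqcrc1, of complex III, 229 to 316 CPM and 162 to 218 CPM. Their log2 fold changes were -0.54, -0.50 and -0.47. Interferon-induced genes were lower in 11 of 50 cases and higher in 1 (median -0.30), and the count of lower genes was 4 without ZT1, 5 without ZT9 and 7 without ZT21. Usp18, which restrains interferon signalling, had 7.03 to 14.2 CPM and 4.33 to 6.37 CPM (-0.99 ± 0.17, edgeR adjusted p = 0.00582), and Ifit1 13.1 to 36.1 CPM and 8.14 to 13.3 CPM (-1.19 ± 0.21). Ifi27l2b was the member that was higher, at 1.58 to 4.26 CPM and 2.97 to 10.4 CPM (1.24). Of the 13 mitochondrially encoded genes, mt-Nd4l (-1.43), mt-Nd5 (-0.44) and mt-Nd6 (-0.40) were lower, and none was called without ZT21.

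Complement and coagulation genes divided, with 10 of 37 higher and 3 lower (median -0.07), and 5 higher and 1 lower without ZT9. The lower ones were Klkb1 (-0.68), Proc (-0.34) and F11, coagulation factor XI, at 53.3 to 67.5 CPM and 27.8 to 42.0 CPM (-0.81 ± 0.08, edgeR adjusted p = 0.000146). Of 17 genes of iron handling, 4 were higher, Trf (transferrin, 0.81), Bmp2 (0.66), Bmp6 (0.47) and Hmox1, heme oxygenase, which had 12.6 to 21.7 CPM and 25.7 to 34.3 CPM (0.86 ± 0.14, edgeR adjusted p = 0.00426). Of 16 heat-shock genes, Hspb1 (1.53), Hsp90aa1 (0.83) and Hspb8 (0.65) were higher, 1 of them without ZT9. Of 22 genes of retinoid metabolism, Retsat, Rdh7 and Dhrs3 were lower and none higher, and no member was lower without ZT1. Of 12 p53 and senescence genes, Phlda3 and Bax were higher, and no call was made without ZT1, ZT5, ZT9 or ZT21. Ribosomal, endoplasmic reticulum and proteasome lists held few calls or none. Of 84 cytosolic ribosomal protein genes, Rpl41 (0.64) was called (18 at an unadjusted p below 0.05, and 3 by DESeq2). No call was made among 24 endoplasmic reticulum chaperones with edgeR (2 at an unadjusted p below 0.05, none by DESeq2) or among 38 proteasome subunits (0 at an unadjusted p below 0.05, none by DESeq2). Of 19 core clock and output genes, whose levels cycle over the day, 2 were called, both lower (10.5%, against 6.07% of all genes tested), among them Cry2. It had 15.4 to 27.5 CPM and 7.77 to 20.98 CPM (-0.61, edgeR adjusted p = 0.0411). When each ZT was left out in turn, Cry2 kept its call only without ZT5 or ZT21, and it was not called without the block.

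Whether the age difference itself depended on the time of day was tested as the difference between the dark phase (ZT13, ZT17 and ZT21) and the light phase (ZT1, ZT5 and ZT9). It was called for 28 of 12931 genes (0.217%), and this number ranged from 2 without ZT13 to 63 without ZT1 or ZT9 and was 11 with DESeq2 size factors, 142 with DESeq2's test and 653 without a filter on low counts. Globin genes of red blood cells, chosen after their values were seen, were among the 28. Hba-a2 had 61.6, 67.2 and 68.8 CPM in the light phase at 6 months and 199, 150 and 230 CPM in the dark phase, while at 2 months it had 79.2, 104 and 72.1 CPM in the light and 52.3, 34.9 and 43.4 CPM in the dark. The dark minus light difference of its age effect was 2.49 on the log2 scale (edgeR adjusted p = 0.000391), and that of Hbb-bt was 2.66 (edgeR adjusted p = 0.00165). Erythroid genes took 0.108% to 0.199% of counts at 2 months and 0.162% to 0.462% at 6 months, and the part of blood in the tissue was not tested.

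The 12-month libraries of the same time course, which share the 2-month controls with the comparison above, are set beside it for the same members. The acute-phase list summed to 17190 to 32456 CPM at 12 months, below every 6-month library. At 12 against 2 months, 15.0% of genes tested were called, and of 27 acute-phase genes 3 were higher and 5 lower. Saa2 had 5.82 to 544 CPM at 12 months, Lcn2 0.508 to 15.0 CPM, Mt1 7.57 to 30.01 CPM and Hpx 3291 to 6818 CPM. Cyp8b1 had 35.0 to 293 CPM at 12 months and Cps1 2065 to 2912 CPM. Other members had medians farther from the 2-month level at 12 months than at 6 months, which was not tested. Cyp2c40 had 3.19 to 10.2 CPM at 12 months, Csad 254 to 476 CPM and Serpina7 118 to 522 CPM.

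A separate set of 8 libraries from the study's genotype cohort, 4 at each age, held wild-type mice and littermates whose floxed Egr-1 was deleted by Alb-Cre, which acts in hepatocytes, each sampled at the times of highest and lowest Egr-1 protein. Those times were ZT13 and ZT17 at 2 months and ZT9 and ZT21 at 6 months, so that age and hour differed together there. With genotype in the model, 401 of 13654 genes (2.94%) were called between 6 and 2 months by edgeR, and 902 by DESeq2. With the label of highest or lowest Egr-1 added to the model, 165 were called. That label covers different hours at the 2 ages, so age and hour were still not separated. The wild-type libraries alone, 2 at each age, gave 0 calls with edgeR, 1661 at an unadjusted p below 0.05 and 179 calls by DESeq2. No acute-phase gene of 27 was called in this cohort with edgeR (4 at an unadjusted p below 0.05, and 1 by DESeq2), and their median log2 fold change was 0.10. Saa2 had 19.9 to 165 CPM at 2 months and 19.3 to 211 CPM at 6 months in the cohort, Lcn2 3.99 to 33.3 CPM and 5.06 to 28.9 CPM, and Hpx 2801 to 3808 CPM and 2457 to 3421 CPM. All cohort levels of these genes lay below the 6-month levels of the time course.

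The difference between the 2 experiments was tested in a joint fit, added after the data were seen. The age difference of the time course departed from that of the cohort for 1115 of 13855 genes (8.05%), and for 235 of 14158 (1.66%) when only wild-type libraries of the cohort were used. It was called for 20 of 28 acute-phase genes, with a difference of 7.38 ± 1.13 for Saa2 on the log2 scale (edgeR adjusted p = 0.00193), 6.24 for Lcn2 and 1.96 for Hpx. The 28 include Mt2, which was not tested in the cohort by itself and could enter the joint fit through its 6-month time-course libraries. Of 733 genes higher at 6 months in the time course and tested in both, 53.3% had a higher level at 6 months in the cohort, against 50.1% of all genes tested in both, and 22 were called higher there and 5 lower. Of 780 lower genes, 49.2% were higher in the cohort, with 26 called lower and 29 higher. Of all 12755 genes tested in both, 186 (1.46%) were called higher in the cohort and 192 (1.51%) lower.

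Some members had like differences in both experiments. Cyp2c40 had 26.9 to 57.02 CPM at 2 months and 3.54 to 18.2 CPM at 6 months in the cohort, a log2 fold change of -2.23 (edgeR adjusted p = 0.0138), and the experiments differed by 0.15 (edgeR adjusted p = 0.861). Cyp2c69 had a log2 fold change of -2.35 in the cohort (edgeR adjusted p = 0.00858), Cib3, a calcium-binding protein, -1.52 (edgeR adjusted p = 0.0176), Ugt1a9 -1.45 (edgeR adjusted p = 0.00594) and Zfp979 3.03 (edgeR adjusted p = 0.0335). In the time course Zfp979, a zinc finger gene on chromosome 4, had 0 to 0.481 CPM at 2 months and 2.02 to 11.8 CPM at 6 months. Cd36 was called in the cohort (1.15, edgeR adjusted p = 0.0439) and not in the time course, and the difference of -1.05 passed the test (edgeR adjusted p = 0.0291).

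**Figure D4:**
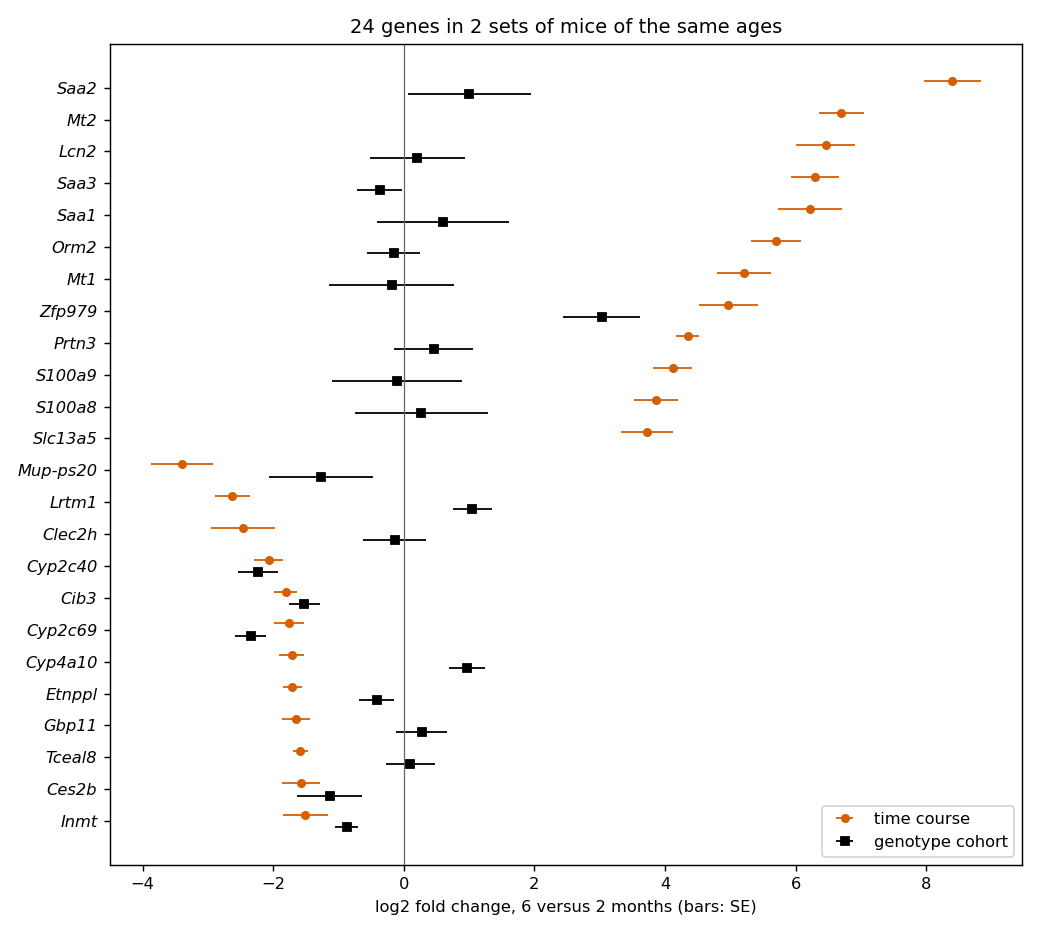
The log2 fold change at 6 against 2 months with its SE for the 24 named genes of largest change, in the time course (orange circles, 6 libraries per age) and in the genotype cohort (black squares, 4 libraries per age, not shown for Mt2 and Slc13a5, which were not tested there). Saa2 lies at 8.40 in the time course and at 1.00 in the cohort, while Cyp2c40 lies at -2.07 and -2.23.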

How the data were processed

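Liver poly(A) RNA was sequenced in paired-end, unstranded libraries. The authors deposited raw counts of reads per gene, as whole numbers, which the labels credit to fastp, HISAT2 and featureCounts on mm10 (versions and annotation not given in the sources used here) and call estimated. The 12 columns of 2 and 6 months were used, and 0 columns of per-sample values were left unmapped. Genes were filtered with filterByExpr (12931 of 24400 with a count), scaled with TMM factors and tested with edgeR 4.0.16 (R 4.3.3, quasi-likelihood F-test, Benjamini-Hochberg adjustment, threshold 0.05), with ZT as a block. The median biological coefficient of variation was 0.153. Fits were tested on simulated data. Gene positions are from GENCODE vM21 (GRCm38) and promoter sequences from RefSeq (GRCm38.p6).

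Named genes were the 12 with the largest change in each direction among called genes that moved the same way at all 6 ZT with a mean of at least 5 CPM at the higher age, the 10 of lowest p higher and the 10 of lowest p lower at 6 months, up to 6 called members of lowest p from each list (and members given as reference levels, here Apcs, Hp, Hpx, Itih4, Il1rn, Hamp, Cfb and Clec4f), and the genes the study is about. Where a list had 5 or fewer calls in a direction these were otherwise named. Genes without a regular symbol were not ranked, and a few members the rule names are not reported here. The comparison, the 52 lists and their members were chosen with earlier results of these data known. Alternatives were other size factors, no count filter, DESeq2 1.42.0, no block, a 24-h curve, a fit on 18 libraries, robust dispersion and each ZT left out, and, added after seeing the data, library totals alone and a table without the acute-phase list. The joint fit with the genotype cohort and the 12-month levels were also added then. The cohort's gene identifiers were matched to symbols that occur once.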

Additional observations from a re-analysis of the deposited data

Results flagged for a closer look

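Of the 24 genes named for the largest changes, 14 had an age difference in the time course that departed from the genotype cohort in the joint edgeR fit (adjusted p below 0.05), against 8.05% of all genes tested, or 235 genes in place of 1115 with wild-type libraries of the cohort alone. These 24 were chosen by their time-course values, which also enter the difference, so the count is a description and no support for a departure. The time course minus cohort difference, on the log2 scale, was 7.38 for Saa2, 5.61 for Saa1, 6.65 for Saa3, 5.84 for Orm2, 6.24 for Lcn2 and 5.40 for Mt1, all of the acute-phase list. It was 3.87 for Prtn3, 4.20 for S100a9 and 3.91 for Slc13a5. Slc13a5 was not tested in the cohort by itself and could enter the joint fit through its 6-month time-course libraries. In the genes that were lower at 6 months the difference was -3.68 for Lrtm1, -2.70 for Cyp4a10, -1.31 for Etnppl, -1.94 for Gbp11 and -1.70 for Tceal8. The 2 experiments differed in hour of collection, genotype and animals, and which of these the differences came with cannot be told apart.

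The age difference also departed between the dark and the light phase for the globin genes Hba-a2 (2.49 on the log2 scale) and Hbb-bt (2.66).

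Among 224 groups of 6 libraries (112 named genes at 2 ages), 26 had a highest or lowest library set far from the others by Dixon's ratio, 13 at each age. Chance gives about 1 in 20 for independent values of a normal distribution. The CPM were not log-transformed and the genes share libraries, so that rate does not apply and the count is a description only. At 6 months, the highest library was that of ZT5 in 8 of the 13. These were Lcn2 at 2295 CPM, Mt1 at 3168 CPM, S100a9 at 62.8 CPM, Slc13a5 at 18.8 CPM, Il1rn at 52.4 CPM, Socs3 at 96.3 CPM, Gadd45b at 3.81 CPM and Egr1 at 37.5 CPM. The 6-month library of ZT5 was also the lowest for Ces2c at 18.4 CPM and Slc10a1 at 183 CPM. Further 6-month groups had their highest library at ZT9 for Cyp2c69 (8.45 CPM) and at ZT13 for Ces2b (5.81 CPM) and Trem2 (4.40 CPM). At 2 months, the library set apart was highest at ZT13 for Mt1 (72.4 CPM) and Mt2 (1.29 CPM), at ZT21 for Fgl1 (288 CPM) and Cxcl13 (7.05 CPM), at ZT1 for Fos (1.58 CPM), Egr1 (27.0 CPM), Ugt1a9 (25.5 CPM) and Mup9 (101 CPM), at ZT5 for Mup11 (1530 CPM), at ZT9 for Gbp11 (41.5 CPM) and Cd36 (62.0 CPM) and at ZT17 for mt-Nd4l (328 CPM), and it was lowest at ZT17 for Cps1 (3024 CPM). These groups run over 6 times of day, so a daily peak can set a library apart.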

How the results depend on the processing

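Without the ZT block, 980 genes differed between the ages in place of 1529, 536 of them higher and 444 lower. Deviations from the age means of same-ZT libraries correlated at 0.28 (ZT1), 0.05 (ZT5), 0.31 (ZT9), 0.29 (ZT13), 0.16 (ZT17) and 0.29 (ZT21), and ZT5 and ZT9 correlated better with another ZT, so the pairing by ZT was incomplete and the block rests on the design. Leaving out each ZT gave 845 to 1179 calls, 455 to 580 higher and 390 to 599 lower, and 191 to 234 with an absolute log2 fold change above 1.2. The total lay between 1472 and 2147 under the other alternatives, and without a count filter the calls above 1.2 rose from 212 to 358. The dark against light difference was called for 28 genes, for 2 to 63 with a ZT left out, 11 with DESeq2 size factors, 653 with no count filter and 142 with DESeq2, and 1478 had an unadjusted p below 0.05. In the genotype cohort the 401 calls became 902 with DESeq2 and 0 with wild-type libraries alone. They became 165 with the label of highest or lowest Egr-1, which is not the hour, in the model. The 1115 differences between experiments became 235 with wild-type libraries alone. The cause of these changes was not tested. Of 112 named genes tested, 101 were called. None of the 101 reversed direction in any of 15 settings, and 87 of these were called in every setting. A change of sign in a gene without a call was not counted. The others lost their call without the block (Inmt, Junb, Thrsp, G6pc, Slc1a2 and Cry2), with robust dispersion (Il1rn, Clec2h, Inmt, Steap4, G6pc, Slc2a2, Mup9, mt-Nd4l and Cry2), in the fit on 18 libraries (Thrsp) or with a ZT left out (Slc2a2, Slc10a1, Inmt, Fos, mt-Nd4l and Cry2). With 1 library per age and ZT, changes at a single hour could not be tested.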

Other observations

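Zfp979 and 2 other zinc finger genes of chromosome 4, Zfp992 and Zfp982, were called higher at 6 months in both experiments. The latter were chosen after their values were seen, and other zinc finger genes of the region were not counted. Zfp992 (146449023 to 146470292) had 1.497 to 5.78 CPM at 2 months and 9.86 to 33.7 CPM at 6 months, with a log2 fold change of 2.81 ± 0.26 in the time course (edgeR adjusted p = 0.000141) and 1.52 in the cohort (edgeR adjusted p = 0.0101). Zfp982 (147492417 to 147513486) had 1.81 to 4.19 CPM and 4.03 to 11.6 CPM, with log2 fold changes of 1.24 (edgeR adjusted p = 0.0102) and 0.83 (edgeR adjusted p = 0.0238). Zfp979 (147611937 to 147642513) had 4.97 and 3.03. At 12 months in the time course, Zfp979 had 4.01 to 10.6 CPM, Zfp992 21.7 to 45.8 CPM and Zfp982 8.40 to 14.2 CPM. These genes resemble each other, and how reads were divided among them is uncertain.

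Gnai1, an inhibitory G protein subunit chosen in the same way, had 0.756 to 1.58 CPM at 2 months and 3.74 to 6.91 CPM at 6 months, a log2 fold change of 2.11 ± 0.22 (edgeR adjusted p = 0.000302), and 1.32 in the cohort (edgeR adjusted p = 0.00954). Among drug and anion transporters, 4 of 24 tested were higher at 6 months and 6 lower, and the higher ones included Abcb1b (1.89 on the log2 scale), a multidrug transporter.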
